A study of Homo sapiens with 16 samples.

Results

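253J is a human bladder cancer cell line. RNA sequencing compared 253J cells given CM-1758, a histone deacetylase (HDAC) inhibitor, with 253J cells given the DMSO vehicle, and the members of the comparison were chosen by the line and treatment in the sample labels. This gave 4 of the 16 libraries of the series, 2 control libraries (replicates 2 and 3) and 2 treated libraries (replicates 1 and 3). All 4 came from wild-type 253J cells kept for 48 h either with the drug, at the dose that halved growth of this line, or with 0.01% DMSO. The other 12 libraries were J82, RT112 and TCCSUP bladder cancer cells handled the same way, and they served here to estimate the spread between replicates and to ask where the response of 253J differed. The study calls its replicates independent, but 2 libraries of one line per group describe that line at one dose and one time.

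Histone deacetylases remove acetyl groups from lysines of histones and of other proteins, and acetylated histones mark open chromatin at active genes. Blocking these enzymes is known to switch on many silent genes, to lower others that are heavily transcribed, and to hold cells in the G1 or G2 phase of the cell cycle. Urothelial tumors often carry mutations in chromatin regulators, which is one reason why such drugs are tried in bladder cancer.

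The deposited values were raw counts per gene for 35993 gene symbols. The 4 libraries held between 22626427 and 30149491 counts, so a gene of 1 CPM (counts scaled to library size) rested on more than 20 counts. All levels below are CPM after TMM scaling, which corrects library sizes for genes that take up a large share of the counts. Treated libraries had counts for more genes (22948 and 23586) than control libraries (20008 and 20352), although they were sequenced less deeply. The 8 epithelial markers were all detected, with a summed level of 4338 and 3187 CPM in control and 2351 and 1858 CPM in treated cells. Leukocyte markers summed to 8.94 and 6.78 CPM in control and 29.6 and 39.4 CPM in treated cells, with *MS4A1* and *NKG7* at 0. Their rise was mainly that of *CD68*, a lysosomal protein of macrophages, at 8.58 and 6.63 against 27.4 and 37.1 CPM. Endothelial markers stayed at or under 2.36 CPM, with *CLDN5* at 0 throughout. The 8 fibroblast markers summed to 30.4 and 30.6 CPM in control and to 19.7 and 20.6 CPM in treated cells, which was mainly *COL1A1*, a collagen chain, at 30 and 30.5 against 17.6 and 18.2 CPM. Of the other fibroblast markers, all at most 0.871 CPM in any library, 5 were higher at an adjusted p under 0.05. Whether such marker shifts bear on the gene groups described here was not tested. In bulk RNA, fewer cells of a kind and less RNA per cell cannot be told apart.

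A gene was called changed when its log2 fold change was above 2 or below -2 (over 4-fold) with an adjusted p under 0.01, using edgeR's quasi-likelihood test over all 16 libraries with Benjamini-Hochberg adjustment. Of 21297 tested genes, treatment of 253J left 2009 higher (9.43%) and 746 lower (3.5%). The higher genes were 72.9% of the calls. With at least 10 counts required in every 253J library there were 664 higher genes (51.8% of the calls). Scaling by library size alone gave 2443 higher and 450 lower genes, or 84.4% higher. That scaling moved the median log2 fold change of all tested genes from 0.10 to 0.37, so small shifts of a gene group depend on the scaling. Folds given below without a log2 value are ratios of mean CPM. At an adjusted p under 0.01 without a limit on the fold, 4557 genes were higher and 3860 lower.

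The called genes came from opposite ends of the expression range. The median level of the higher genes went from 0.0766 CPM in control to 2.22 CPM in treated cells, whereas that of the lower genes went from 53.1 to 9.79 CPM. Of the higher genes, 1008 (50.2%) had at most 3 counts in each control library, and 809 had none in either. Of the lower genes, 27 had at most 3 counts in each treated library, and 13 had none. Among all 21297 tested genes, 3911 had at most 3 counts in each control library and 1983 in each treated library. As a share of all counts, the higher genes went from 0.748% and 0.79% in the control libraries to 6.15% and 6.95% in the treated ones. The lower genes took up 12.7% and 12.5% of the counts in control and 2.7% in both treated libraries. The share lost by the lower genes was larger than the share gained by the higher genes. A further set that took more of the counts was that of 7 abundant small noncoding RNAs of nuclear and cytoplasmic particles, which held 9.58% and 11.2% of the counts in control and 16% and 13.9% in treated libraries.

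**Figure D1:**
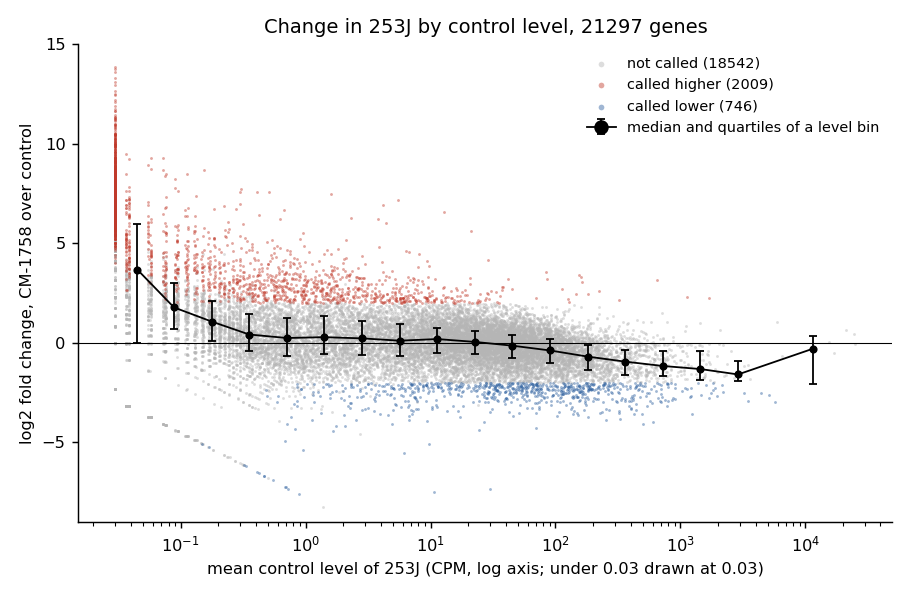
Log2 fold change of each tested gene in 253J (CM-1758 over control, y axis) against its mean control level (CPM, log axis), with called higher genes in red, called lower genes in blue and the median and quartiles of each level bin in black. The bin median goes from 1.07 for genes between 0.125 and 0.25 CPM to -1.59 for the 16 genes between 2048 and 4096 CPM and is -0.29 for the 10 genes above, and higher calls thin out to the right while lower calls gather there.

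Sorted by their mean control level, the calls tipped from mostly higher to mostly lower. Among the 7523 genes under 1 CPM in control, 1570 were called higher and 30 lower. Of these, the 3748 genes under 0.0625 CPM gave 964 higher and 0 lower calls. Genes that low entered the test through counts in other libraries and could hardly be called lower, so their balance was set beforehand. Between 0.5 and 1 CPM there were 167 higher and 20 lower calls out of 1189 genes. Genes of 1 to 10 CPM gave 356 higher and 145 lower calls out of 4082 genes. Genes of 10 to 100 CPM gave 70 higher and 300 lower calls out of 7546. At 100 CPM or more, 13 genes were called higher and 271 lower out of 2146 (0.606% and 12.6%). Taken in steps of 2-fold, higher and lower calls were closest to even at 8 to 16 CPM, with 53 higher and 58 lower of 1853 genes. The median log2 fold change by class was 1.28, 0.20, -0.07 and -0.76, the first of which includes fitted values of genes without control counts. Of the genes of 100 CPM or more, 1719 of 2146 had a log2 fold change below 0, and 866 were over 2-fold lower against 47 over 2-fold higher at an adjusted p under 0.01.

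The balance among highly expressed genes thus depended on how a high level was defined. Rises and falls came out even when the fit was repeated, with TMM factors of its own, on the 10648 genes above the median of the mean log2 CPM over all 16 libraries: 396 were called higher and 390 lower, or 50.4% higher. In that even set, 295 of the 396 higher genes were under 10 CPM in 253J control cells, and 384 of the 390 lower genes were at 10 CPM or more. The even total therefore joined genes that were low in untreated 253J with genes that were high there. Counting the same genes in the fit over all genes gave 352 higher and 456 lower, and splitting instead at the median control level of 253J gave 134 higher and 621 lower.

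Lower calls were also more frequent when the level was taken from elsewhere. With the level from the control libraries of the other 3 lines, genes of 100 CPM or more gave 46 higher and 200 lower calls. With the mean level of all 16 libraries there were 44 higher and 152 lower calls. Dividing the control level by exon length, so that genes were compared per kilobase, gave 7 higher and 89 lower calls among 575 genes. Since a gene whose control level is high by chance will tend to appear to fall, the level was also taken from control replicate 2 and the change from the remaining libraries, which gave 13 higher and 260 lower calls with a median of -0.67. Of the level definitions tried, that by treated 253J cells, which favors genes that rose, gave a nearly even count, 58 higher and 52 lower, with a median of 0.0033.

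**Figure D2:**
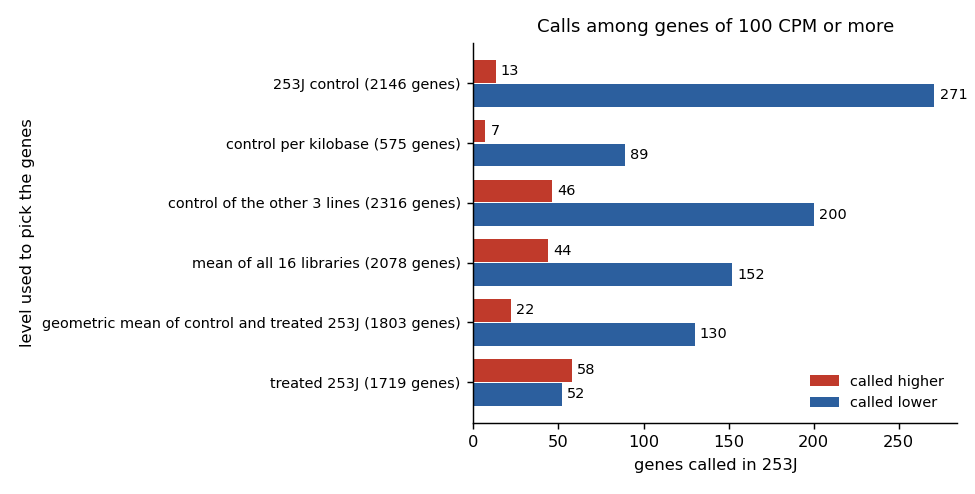
Genes of 100 CPM or more (per kilobase where stated) called higher (red) and lower (blue) in 253J, with the level defined in 6 ways (y axis, number of genes in parentheses). Some of these definitions share libraries. Lower calls outnumber higher calls for every choice except the treated libraries, where they are 52 against 58.

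The highest genes of untreated 253J, ranked by control CPM per kilobase of exon and therefore chosen outside the rule for named genes, show the pattern gene by gene. *ALDH1A1*, a retinaldehyde dehydrogenase, ranked first. It was at 6732 and 4794 CPM in control and at 911 and 556 CPM in treated cells, a 7.85-fold drop (log2 fold change -2.97 ± 0.33 SE, adjusted p = 5.44e-06). *SPP1*, the secreted phosphoprotein osteopontin, went from 2972 and 3496 to 551 and 574 CPM, and *PLAU*, the urokinase plasminogen activator, from 5195 and 5128 to 848 and 845 CPM. The luminal chaperones *HSP90B1* and *CALR* fell 3.56-fold and 3.18-fold. In contrast, *RPL7A*, a protein of the large ribosomal subunit, was at 1325 and 1124 against 1239 and 1001 CPM and did not pass the test (adjusted p = 0.661). *RPL7A* and *EEF1A1* have many processed copies in the genome, so their counts are less certain.

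Only 13 genes of 100 CPM or more in control were called higher. The largest change was that of *SRXN1*, sulfiredoxin, which restores oxidized peroxiredoxins: 163 and 145 CPM in control against 1686 and 1614 CPM in treated cells (log2 fold change 3.42 ± 0.23, adjusted p = 4.64e-08). *SQSTM1*, the autophagy receptor p62, went from 673 and 630 to 5728 and 5767 CPM and became one of the most abundant messengers of treated cells. *CLU*, the secreted chaperone clusterin, was at 145 and 178 against 1377 and 1808 CPM. In each of these 3 genes, as in all 2009 called higher genes, both treated libraries lay above both control libraries. The share among genes not called is not given here, so this separation adds no support to the calls.

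*TIMP1*, an inhibitor of matrix metalloproteinases, rose 8.38-fold, and *BIRC3*, an inhibitor of apoptosis that acts in NF-kB signaling, 6.03-fold. *SPAG9*, a scaffold of JNK signaling, and *TINAGL1*, a matricellular protein, rose 5.51-fold and 5.46-fold. *CKS2*, a small subunit of cyclin-dependent kinases, was at 123 and 101 CPM in control and at 754 and 719 CPM in treated cells, a rise against the run of the other cell cycle genes below. The remaining 5, named here because the set is small, were *TFPI2*, *MALAT1*, *FTH1*, *FTL* and *GSTP1*, with rises of 4.1 to 4.92-fold. *FTH1* and *FTL* encode the ferritin chains that store iron and have many pseudogenes, and *GSTP1* conjugates glutathione.

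The strongest falls among highly expressed genes were led by *ERAP2*, an aminopeptidase that trims peptides for MHC class I, at 492 and 516 CPM in control and 28.2 and 30.9 CPM in treated cells (log2 fold change -4.09 ± 0.46, adjusted p = 3.7e-06). *GALNT14*, which starts O-linked glycosylation, went from 588 and 613 to 39.9 and 35.8 CPM. *DHRS3*, a retinal reductase, fell 14-fold, and *TXNDC15*, a thioredoxin domain protein, 13.3-fold. *SERPINH1*, the collagen chaperone HSP47, was at 424 and 423 CPM against 35.3 and 35.1 CPM, and *KIF20A*, a kinesin of late mitosis, at 160 and 144 against 14.4 and 10.1 CPM. Another, the readthrough transcript *BLOC1S5-TXNDC5*, shares its exons with *TXNDC5*. Its treated libraries differed widely, at 0.436 and 33.8 CPM, so its fold change is uncertain.

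**Figure D3:**
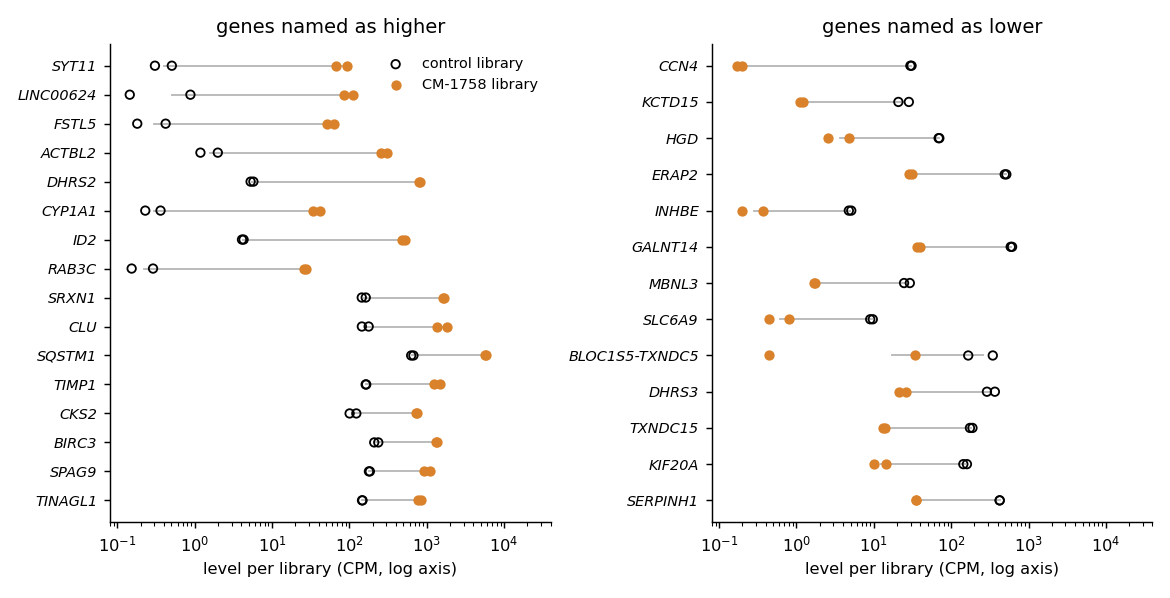
Level in each of the 4 libraries of 253J (CPM, log axis) of the genes named as higher (left) and lower (right), with open circles for control libraries, filled circles for treated libraries and a grey line joining the group means. Control and treated circles do not overlap in any row. This holds for all 2009 called higher and all 746 called lower genes, so it does not set the genes shown apart and adds no support to the calls. *BLOC1S5-TXNDC5* has the widest gap between its treated libraries, 0.436 and 33.8 CPM.

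Over all levels, the largest rises among genes with more than 3 counts in every control library included genes with vesicle and detoxifying roles. *SYT11*, a synaptotagmin of vesicle traffic, went from 0.507 and 0.306 CPM to 67.3 and 92.6 CPM (log2 fold change 7.59 ± 0.37, adjusted p = 3.26e-09). *RAB3C*, a small GTPase of secretory vesicles, was at 0.29 and 0.153 against 26 and 27.7 CPM. *DHRS2*, a short-chain dehydrogenase known to respond to HDAC inhibitors, went from 5.29 and 5.75 to 820 and 793 CPM, a 146-fold rise. *CYP1A1*, the cytochrome P450 induced through the aryl hydrocarbon receptor, rose 128-fold. *ID2*, which blocks basic helix-loop-helix factors from binding DNA, went from 4.09 and 4.29 to 480 and 520 CPM. *ACTBL2*, an actin-like gene, the follistatin-like gene *FSTL5* and the noncoding RNA *LINC00624* were 179-fold, 189-fold and 189-fold higher. Control levels of *LINC00624* were uneven, at 0.145 and 0.881 CPM.

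The largest falls among genes still detected in treated cells included *CCN4*, a matricellular protein of Wnt signaling, at 30.7 and 29.7 against 0.198 and 0.169 CPM. This was a 165-fold drop (log2 fold change -7.34 ± 0.47, adjusted p = 9.18e-08), resting on 5 counts in each treated library. *KCTD15*, *HGD*, the homogentisate dioxygenase of tyrosine breakdown, and *INHBE*, an inhibin subunit, were 21.1-fold, 19.1-fold and 17.3-fold lower. The splicing regulator *MBNL3* and the glycine transporter *SLC6A9* were 15.6-fold and 15.2-fold lower.

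Among genes without expression in control 253J cells, the highest treated levels belonged to *LINC01822*, *RFPL4A*, *CDH13*, *GBP5* and *NRXN2*. *CDH13*, the atypical cadherin T-cadherin, had no count in control and 60.1 and 54.1 CPM in treated cells. Taking 3 counts per control library as the limit of detection, it was at least 511-fold higher. *GBP5*, a guanylate-binding protein that is normally induced by interferon, had no count in control and 44.4 and 48.5 CPM in treated cells, or at least 416-fold more. *RFPL4A* has nearly identical copies, so its reads may be shared with them. *NRXN2*, a presynaptic adhesion protein, had 3 counts in each control library and 1006 and 1279 in the treated ones, a ratio of 373 with a 95% exact interval of 171 to 1017 that covers counting error only. In these libraries more genes had 2 counts than 1 count (1033 against 810 in control replicate 2), and how fragments were counted is not given in the sources used here. If each end was counted, the interval is too narrow and 3 counts stand for fewer fragments. Of the genes with at most 3 counts in each treated library, those of the highest control level were the readthrough transcripts *HSPE1-MOB4* and *ZFP91-CNTF* (the latter with 76 counts in one control library and none elsewhere, adjusted p = 0.145) and *HRCT1*, *LINC01781* and *CAPN13*, the last 3 each at most 2.61 CPM in control.

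Gene groups written from general knowledge were then read against these calls at an adjusted p under 0.05, which 28.8% of all tested genes passed as higher and 22.4% as lower, with a median log2 fold change of 0.10 for all genes. Of 1127 list entries, 1104 were tested, and the others were in no row of the table or under the count filter. Of those tested, 46 had no count in any 253J library. The lists were not matched for control level. At 100 CPM or more in control, 7.97% of all genes were higher and 63.8% lower at this limit. Mitosis genes fell throughout. All 43 members were lower, 40 of them over 4-fold, and the list median was -2.42. *CENPF*, a kinetochore protein, was at 811 and 767 CPM in control and 85.7 and 89 CPM in treated cells (log2 fold change -3.17 ± 0.22, adjusted p = 4.55e-08). *FOXM1*, the transcription factor that drives many of these genes, was at 33.2 and 32.8 against 9.19 and 4.59 CPM. All 22 mitosis genes of 100 CPM or more in control were called lower.

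The genes that license and copy DNA moved the same way. All 19 replication licensing genes were lower (median -1.93), as were 20 of 25 genes of DNA synthesis and nucleotide supply (median -1.57) and 21 of 23 genes of homologous recombination and Fanconi repair (median -1.87), and no member of any of the 3 lists was higher. *MCM7*, a subunit of the replicative helicase, went from 483 and 392 to 106 and 73.1 CPM, and *CDT1*, which loads that helicase, from 16.6 and 12.1 to 4.24 and 1.55 CPM. *RRM2*, the small subunit of ribonucleotide reductase, was 4.81-fold lower. *RAD54L* and *XRCC2*, which act in strand exchange, were 7.88-fold and 6.73-fold lower. *E2F1*, the activator of S phase genes, was at 53.7 and 43.2 against 11.9 and 6.82 CPM.

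The promoters of the cell cycle genes are shown because certain short motifs recur in them. Shown are the 250 bases upstream of the transcription start of 4 genes that fell and of *CKS2*, which rose, from RefSeq on GRCh38.p14, 5′ to 3′ on the strand of the gene. Capitals mark CCAAT (bound by NF-Y), TTTGAA (the core of the cell cycle homology region) and TTTNNCGC (the core of an E2F site) on either strand, where matches may overlap, and a match describes the letters alone, not a used site.
KIF20A (chr5:138178862-138179111, plus strand): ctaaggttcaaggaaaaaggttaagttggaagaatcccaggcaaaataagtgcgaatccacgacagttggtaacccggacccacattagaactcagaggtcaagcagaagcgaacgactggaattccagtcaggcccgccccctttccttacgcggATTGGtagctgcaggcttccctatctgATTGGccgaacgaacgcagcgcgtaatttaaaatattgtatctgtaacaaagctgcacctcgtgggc
CENPF (chr1:214602945-214603194, plus strand): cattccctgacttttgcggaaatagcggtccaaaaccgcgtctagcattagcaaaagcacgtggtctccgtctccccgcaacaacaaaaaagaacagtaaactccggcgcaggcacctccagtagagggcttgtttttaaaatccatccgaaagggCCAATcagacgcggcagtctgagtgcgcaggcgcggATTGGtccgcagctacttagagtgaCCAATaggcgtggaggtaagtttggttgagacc
MCM7 (chr7:100101398-100101647, minus strand): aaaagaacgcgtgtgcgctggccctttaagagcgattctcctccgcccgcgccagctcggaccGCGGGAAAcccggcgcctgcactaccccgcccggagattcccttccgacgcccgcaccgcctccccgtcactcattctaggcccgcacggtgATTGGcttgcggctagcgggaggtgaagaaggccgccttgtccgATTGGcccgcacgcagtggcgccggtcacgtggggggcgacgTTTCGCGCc
E2F1 (chr20:33686386-33686635, minus strand): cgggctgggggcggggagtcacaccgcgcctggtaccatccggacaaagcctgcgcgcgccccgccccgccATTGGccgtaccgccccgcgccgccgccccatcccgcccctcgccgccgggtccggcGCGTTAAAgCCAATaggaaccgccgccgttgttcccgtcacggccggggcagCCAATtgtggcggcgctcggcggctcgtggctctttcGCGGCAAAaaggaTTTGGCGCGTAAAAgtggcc
CKS2 (chr9:89310945-89311194, plus strand): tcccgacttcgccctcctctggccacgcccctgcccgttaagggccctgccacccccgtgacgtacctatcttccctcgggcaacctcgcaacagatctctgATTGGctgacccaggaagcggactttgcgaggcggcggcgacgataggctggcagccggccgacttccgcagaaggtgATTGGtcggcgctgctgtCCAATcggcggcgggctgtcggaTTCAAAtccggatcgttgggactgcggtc

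Over these 250-base windows, CCAAT stood in 75.7% of the 37 mitosis promoters found in the reference, against 35.1% of the 13133 promoters of all tested protein-coding genes. TTTGAA stood in 56.8% against 9.36%. With the first 50 transcribed bases added, the share with TTTGAA was 73% against 10.6%. TTTNNCGC stood in 37.8% of the 37 promoters of the licensing and synthesis lists against 8.38% of all. Among genes of 100 CPM or more in control, TTTGAA was in 17.8% of the 214 promoters of called lower genes and in 7.69% of the 1522 promoters of genes not called. The called lower genes there include the 22 mitosis genes. In the same sets CCAAT stood in 37.9% and 37.6%, and TTTNNCGC in 8.88% and 11.6%. *CKS2* carried 3 CCAAT and 1 TTTGAA in this window and yet was higher in treated cells. Promoters were found for under 80% of all called higher genes and of all called lower genes, so the same check over those sets was void.

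Regulators of G1 did not move as one. Of 8 CDK inhibitors, 4 were higher and 3 lower. *CDKN1A*, the p53 target p21, was at 88.4 and 74.8 CPM in control and 206 and 193 CPM in treated cells (log2 fold change 1.29 ± 0.25, adjusted p = 0.000472). *CDKN2D* rose 3.29-fold, while *CDKN2C* and *CDKN1B*, the gene of p27, fell 3.83-fold and 2.76-fold. *CDKN2A* had no count in any 253J library. Of 22 p53 targets, 6 were higher and 12 lower, with *PLK3*, a stress kinase, 4.27-fold up and the death receptor gene *FAS* at 257 and 219 against 22.1 and 21.2 CPM.

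Among the 11 classical histone deacetylase genes, which encode the proteins that CM-1758 is meant to block, 5 were higher and 1 lower. *HDAC5*, a class IIa enzyme, went from 5.9 and 9.58 to 61.4 and 54.1 CPM. The class I genes *HDAC3* and *HDAC1* rose 2.72-fold and 1.59-fold, whereas *HDAC2* was at 98.4 and 70.3 against 83.7 and 84.6 CPM and did not pass the test (adjusted p = 1). *HDAC7*, another class IIa enzyme, fell 5.34-fold. *CDKN2A*, *HDAC1* and *HDAC2* are named after their values were seen. Of 7 DNA methylation genes, 6 were lower. They included *DNMT3B*, a de novo methyltransferase, at 89.9 and 102 against 15.3 and 15.8 CPM, and *UHRF1*, which guides the maintenance enzyme, 5.37-fold lower.

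Immediate early genes, which are switched on within minutes of many stimuli, moved mainly up, with 18 of 24 higher and 1 lower (median 1.50). *FOS* went from 3.55 and 5.32 to 55.9 and 34.4 CPM and *JUNB* from 30.4 and 36.8 to 207 and 181 CPM. *EGR1* rose 11.1-fold and *KLF4* 5.21-fold. The member that fell was *MYC*, a growth-promoting factor counted in this list, at 144 and 131 against 72.8 and 57.3 CPM (log2 fold change -1.08 ± 0.17, adjusted p = 0.000108). Of these genes, *FOS*, *JUNB* and *KLF4* are named here after their values were seen.

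Genes of neurons and synapses also rose more often than they fell. Of 48 tested, 27 were higher and 4 lower, 22 were over 4-fold higher, and the median was 2.16, or 2.09 with genes undetected in control set at their lower bound. *STMN2* and *STMN4*, regulators of microtubules in neurons, had no count in control and reached 4.16 and 4.69 and 1.86 and 1.96 CPM, at least 39.6-fold and 17.1-fold higher. The group did not move as a whole, since *NLGN1*, a postsynaptic adhesion protein that was already abundant, went from 284 and 322 to 36.2 and 42.7 CPM. Cancer-testis antigens gave 12 higher and 1 lower of 34, at low levels: *TEX14* and *MAGEB2* rose from no count to at most 4.02 and 1.69 CPM. The median control level of this list was 0 CPM. Among all genes under 1 CPM in control, 32.6% were higher and 1.53% lower at an adjusted p under 0.05. Those near 0 had little room to pass as lower. *PRAME*, expressed in control, fell from 115 CPM in both libraries to 64.4 and 60.5 CPM. Long noncoding RNAs were called higher in 13.2% of 2045 and lower in 2.54%, against 9.38% and 3.92% of 16294 protein-coding genes. Their median control level was 0.368 CPM, against 15.9 CPM for protein-coding genes. Of all 7523 genes under 1 CPM in control, 1570 were called higher and 30 lower, and the types were not compared at equal level.

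Machinery that every cell uses divided by pathway. Splicing factors were lower in 24 of 28 cases (median -0.99), with *SRSF1* and *HNRNPH1* 3.08-fold and 3.01-fold lower. Ribosome biogenesis genes were lower in 21 of 30, for example *NPM1*, the nucleolar chaperone nucleophosmin, at 2368 and 1592 against 759 and 691 CPM. In contrast, 65 of 79 cytosolic ribosomal protein genes did not pass the test, although 76 of the 79 were at 100 CPM or more. Their median was -0.11, and 0.16 under library size alone. Nuclear genes of oxidative phosphorylation gave 21 higher and 18 lower of 75 (median 0.12), with *NDUFB3* 2.53-fold up and *NDUFB11* 2.08-fold down. Of 35 translation factors, 5 were higher and 15 lower. Proteasome subunits gave 3 higher and 12 lower of 34, and their median of -0.17 became 0.10 under library size alone. Among the reference genes, *TBP*, the TATA-binding protein, was at 10.8 and 9.46 against 13.9 and 12.4 CPM (adjusted p = 0.0492), a call lost without any 1 of the 4 libraries (adjusted p = 0.0555 to 0.242). *RPL30* was at 368 and 353 against 270 and 237 CPM (adjusted p = 0.0649) and passed as lower in edgeR and DESeq2 on 253J alone (adjusted p = 0.00971 and 0.00105).

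Endoplasmic reticulum genes of 253J were mostly lower. Of 19 endoplasmic reticulum chaperone genes, 17 were lower and none higher (median -1.29). *CANX*, the membrane chaperone calnexin, went from 4394 and 4467 to 691 and 846 CPM, and *XBP1*, a transcription factor of the unfolded protein response, from 183 and 145 to 27.3 and 27.2 CPM. Cytosolic heat shock genes were mixed, with 2 higher and 8 lower of 18. *DNAJB1* rose 1.75-fold and *HSPD1*, the mitochondrial chaperonin that is kept in this list, fell 4.15-fold. Of 17 ATF4 and amino acid stress genes, 12 were lower, among them the cystine transporter *SLC7A11* at 415 and 417 against 53.5 and 69 CPM. *DDIT3*, the stress factor CHOP, went the other way, from 28.8 and 32.8 to 171 and 202 CPM. Of 29 lysosome genes, 11 were higher and 11 lower, with *ATP6V0D1*, a subunit of the proton pump, 3.65-fold up and cathepsin Z (*CTSZ*) 5.2-fold down.

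Sterol genes moved in both directions. *IDI1* and *HMGCS1*, enzymes of the mevalonate pathway, went from 51.2 and 32.7 to 316 and 465 CPM and from 75.9 and 63.4 to 266 and 385 CPM. In the whole list of 23 genes, 7 were higher and 11 lower. In glycolysis, the rarer hexokinase *HK1* rose from 1.27 and 1.69 to 10.7 and 10.1 CPM while *HK2* went from 85.3 and 64.9 to 23.4 and 23.2 CPM and *ENO1*, enolase, fell 3.45-fold. The list gave 8 higher and 7 lower of 22. Of 9 tested metallothionein genes, 7 had no count in any 253J library, and the metal-binding *MT1X* went from 4.27 and 4.56 to 279 and 286 CPM and *MT2A* rose 3.29-fold.

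Matrix and adhesion genes included many of the abundant transcripts of untreated 253J. Of 18 collagen processing genes, 13 were lower and none higher (median -1.29). Of 38 collagen and matrix genes, 11 were higher and 13 lower. Members of high and low control level differed in direction, as did all tested genes sorted by control level. At 100 CPM or more, 7.97% of all genes were higher and 63.8% lower at an adjusted p under 0.05. Under 1 CPM these shares were 32.6% and 1.53%, where genes near 0 had little room to pass as lower. *SPARC*, a collagen-binding matrix protein, went from 3606 and 3373 to 478 and 448 CPM and *COL4A1* fell 6.43-fold, while *COL16A1* rose 3.96-fold from 1.23 and 1.11 CPM. *ITGB6* and *ITGB5*, integrin chains of receptors for matrix and latent TGF-beta, were 11.4-fold and 6.89-fold lower, and *ITGA7* was 18.9-fold higher. The proteases *MMP10*, at 0.253 and 0 against 5.11 and 7.09 CPM, and *MMP14*, at 281 and 290 against 87.2 and 67.9 CPM, likewise differed in direction.

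Signaling lists also held both rises and falls, and their members were not compared with other genes of equal control level. Of 14 YAP1 and TEAD targets, 2 were higher and 8 lower. *ANKRD1*, a cardiac ankyrin repeat protein, went from 15.9 and 9.69 to 1205 and 1244 CPM and *CCN2*, connective tissue growth factor, from 93.9 and 76.6 to 721 and 841 CPM, yet the receptor kinase *AXL* fell 4.44-fold. Of 21 TGF-beta genes, 9 were higher and 8 lower, with the latent TGF-beta binding protein *LTBP1* at 178 and 177 against 24.2 and 28.9 CPM. Receptor tyrosine kinases and EGFR ligands were lower in 14 of 24 and higher in 3. *FGFR2* and *TGFA*, a ligand of EGFR, were 7.43-fold and 5.05-fold lower, *ERBB2* went from 111 and 127 to 28.5 and 24.5 CPM, and *ERBB4* was 5.01-fold higher from a control level of 2.57 and 3.52 CPM.

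Identity genes of the urothelium did not turn in one direction, with 5 higher and 5 lower of 21. *KRT20*, a keratin of umbrella cells, had no count in control and 11.7 and 7.15 CPM in treated cells (at least 84.5-fold higher), and the fatty acid carrier *FABP4* was at least 133-fold higher. *FOXA1*, a luminal transcription factor, fell 3.33-fold. Of the basal genes, *TP63* rose from 0.0724 and 0.153 to 6.89 and 12 CPM, and *CD44*, an adhesion receptor, fell from 967 and 861 to 171 and 204 CPM. Both classical cadherins fell, *CDH1* from 191 and 171 to 23.4 and 28.8 CPM and *CDH2* from 540 and 529 to 145 and 150 CPM, while *SNAI1*, a repressor of *CDH1*, rose 8.66-fold. Of 21 epithelial junction genes, 6 were higher and 7 lower, among them *CLDN4* at 0.0724 and 0.268 against 2.97 and 3.71 CPM and *CLDN1* at 573 and 487 against 164 and 184 CPM.

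Genes of antigen presentation were mostly lower. Of 18 MHC class I presentation genes, 13 were lower and none higher (median -1.11), and 8 were over 4-fold lower. Their median control level was 116 CPM. Of the 10 members at 100 CPM or more, 7 were lower, against 63.8% of all genes at that level. Of the same 10, 4 were called lower, against 12.6% of all genes there. Whether the list differs from genes of equal level was not tested. HLA genes are polymorphic and similar to each other, so counts of single HLA genes are uncertain and none is named. Beside *ERAP2*, the chaperone-like *TAPBPL* fell 10.7-fold. Interferon-induced genes were mixed, with 10 higher and 15 lower of 46: *GBP1* went from 44.8 and 34.2 to 6.06 and 5.1 CPM, against the appearance of its relative *GBP5*, while *BST2* rose from 0 and 0.192 to 2.22 and 2.43 CPM and *UBA7* fell 12.7-fold. *STAT3* rose 1.73-fold, and *IRF1*, at 47.4 and 43.9 against 35.7 and 32.1 CPM, did not pass the test (adjusted p = 0.175), although it passed as lower in edgeR and DESeq2 on 253J alone (adjusted p = 0.016 and 0.0299). *CD274*, the gene of the checkpoint ligand PD-L1, was at 7.64 and 7.74 against 10.4 and 11 CPM (log2 fold change 0.47 ± 0.17, adjusted p = 0.0283), a call that was lost without any 1 of the 4 libraries (adjusted p = 0.0589 to 0.116). *PVR*, a ligand of the receptor TIGIT, went from 871 and 830 to 120 and 111 CPM. Of 27 NF-kB targets and cytokines, 5 were higher and 7 lower, with the chemokine *CCL20* 5.16-fold up and the adhesion molecule *VCAM1* 11.7-fold down. In the BCL2 family, 7 were higher and 6 lower of 16, with the death-promoting *BMF* 8.65-fold and *BIK* 14.6-fold higher and *BID* 3.57-fold lower.

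The remaining lists were mixed. G1 cyclins, kinases and pocket proteins gave 4 higher and 11 lower of 19, actin and contractile genes 5 and 13 of 30, and integrins 3 and 8 of 15. Immune checkpoint and NK ligands gave 4 higher and 7 lower of 16, matrix proteases and inhibitors 8 and 5 of 22, and basal and squamous markers 4 and 1 of 16. Transcription factors of epithelial-mesenchymal transition with the cadherins gave 2 higher and 3 lower of 13. Of the small noncoding RNAs, 1 was higher and 1 lower of 7. Under library size alone the medians changed sign for the BCL2 family (-0.01 to 0.27), lysosome genes (-0.17 to 0.10), collagen and matrix genes (-0.13 to 0.14) and checkpoint ligands (-0.03 to 0.10).

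Finally, the response of 253J was set against the mean response of J82, RT112 and TCCSUP in the same fit. A log2 difference above 2 or below -2 at an adjusted p under 0.01 was found for 1477 genes (6.94%), 365 above and 1112 below. Of the called higher genes of 253J, 298 were among those above, and of the called lower genes, 201 were among those below. A difference below can also arise where a gene rose in other lines and stayed flat or undetected in 253J. Of the tested genes, 1160 had no count in any 253J library. Among the 2146 genes of 100 CPM or more in 253J control, 4 were above and 144 below, against 365 and 1112 of all 21297 tested genes. In each other line, sorted by the control level of that line, genes of 100 CPM or more also had more lower than higher calls, 65 against 1 in J82, 53 against 3 in RT112 and 221 against 2 in TCCSUP, with medians of -0.32, -0.40 and -0.63. The difference of these medians from that of 253J was not tested, and the doses differed between lines.

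Some changes of 253J differed from those of the other lines. *NLGN1* had log2 fold changes of -2.94 in 253J and of 2.27, 3.02 and 2.64 in J82, RT112 and TCCSUP (difference -5.58 ± 0.43, adjusted p = 2.71e-07). *CDH1* was at -2.80 in 253J against 2.77, 0.90 and -0.09 (difference -3.99 ± 0.26, adjusted p = 5.76e-08). *IDI1* and *HMGCS1* were higher in 253J by 3.32 ± 0.28 and 2.25 ± 0.24 on the log2 scale than in the mean of the other lines (adjusted p = 5.85e-07 and 5.34e-06). In J82, RT112 and TCCSUP the log2 fold change was -0.37, -0.20 and 0.27 for *IDI1* and -0.54, 0.09 and 0.39 for *HMGCS1*. By contrast, the fall of *SERPINH1* (difference 0.39, adjusted p = 0.23) and of *DHRS3* (difference -0.11, adjusted p = 0.878) did not pass this test of a difference.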

How the data were processed

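The study extracted total RNA, prepared stranded ribosome-depleted libraries and sequenced them commercially. Per the labels, processing used HISAT2 and StringTie with GRCh37, without versions or roles. The authors deposited raw counts per gene symbol, with replicates kept apart. All 16 libraries, in 8 groups of line and treatment, entered 1 fit: edgeR 4.0.16 in R 4.3.3, filterByExpr (21297 of 35993 genes kept), TMM, quasi-likelihood tests with 8 residual degrees of freedom and Benjamini-Hochberg adjustment. The common biological coefficient of variation was 0.153. Calls required over 4-fold change at an adjusted p under 0.01, and gene lists an adjusted p under 0.05. No set test was run. Some genes that the rule below names are not reported here. The script was tested on simulated data. Replicates correlated at 0.990 (control) and 0.986 (treated) and differed by more than counting noise. Named genes were the 8 largest changes each way in the detected genes and in those of 100 CPM or more, the 5 highest genes off in a group (at most 3 counts per library), leaving out small noncoding RNAs and unnamed loci in all of these, up to 2 members each way per list, and 7 genes named in advance of this fit. The 8 largest changes each way in the detected genes were taken from genes whose groups did not overlap. The members and lists were chosen with earlier results of these data known. Exon lengths came from GENCODE v29, for 19667 of the tested genes, and promoters, on GRCh38.p14, from RefSeq. Alternatives were DESeq2 1.42.0, other scalings, filters, fold limits and level definitions, a replicate block and leaving out libraries.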

Additional observations from a re-analysis of the deposited data

Results flagged for a closer look

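The test of the difference between 253J and the mean of the other 3 lines (edgeR, Benjamini-Hochberg) called 1477 genes. Among them were these genes, which the report names for their change in 253J. *GBP5* had a log2 difference of 13.2, with no count in 253J control cells, so that this fitted value is no bound. *SYT11* and *ID2* were 4.32 and 4.25 above the mean of the other lines, and *TIMP1* 3.03. *CKS2* was above by 2.61, *SQSTM1* by 2.55, *DHRS2* by 2.54, *TINAGL1* by 2.45 and *CYP1A1* by 2.26. The log2 fold change of *DHRS2* was 7.19 in 253J and 7.36 in J82, with 5.84 in TCCSUP and 0.76 in RT112, so its difference from the mean rested largely on RT112. The log2 fold change of *SYT11* was 7.59 in 253J and 6.62 in RT112, against 1.97 in J82 and 1.25 in TCCSUP. That of *CYP1A1* was 6.97 in 253J and 6.58 in TCCSUP, against 4.75 in J82 and 2.80 in RT112. *ID2* was at 1.32, 2.14 and 4.47 in J82, RT112 and TCCSUP. *TIMP1* was at 3.07 in 253J against -0.43, -0.26 and 0.81 in J82, RT112 and TCCSUP. On the lower side, the difference was -5.39 for the readthrough transcript *HSPE1-MOB4*, -5.17 for *GALNT14* and -4.65 for *INHBE*.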

How the results depend on the processing

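With 2 libraries per group, small changes and genes near 1 CPM are the least certain, and the drug dose cannot be told apart from the line. No named gene changed direction under the alternatives run, but counts moved. The 2009 higher and 746 lower genes (72.9% higher) became 664 higher (51.8% higher) with at least 10 counts in every 253J library, 450 lower (84.4% higher) under library size alone, 396 higher and 390 lower (50.4%) in the refit on genes above the median level, and 3406 higher and 2605 lower (56.7%) at a log2 limit of 1. Leaving out 1 library gave 1361 to 1724 higher and 636 to 783 lower genes (65.7% to 70.6% higher). The replicate block gave 1172 higher genes (60.9% higher), and 754 lower; same-numbered libraries correlated at 0.0846 in 253J and 0.0607 to 0.409 in the other lines, so same-numbered libraries deviated together in some lines but not in all, and the numbers were not taken to pair them. At 100 CPM or more in control, 13 higher and 271 lower genes became 47 and 866 at a log2 limit of 1, 175 lower under library size alone, 7 and 89 per kilobase, 44 and 152 by the mean of 16 libraries, 46 higher by the other lines, 22 and 130 by the geometric mean of both groups and 58 and 52 by the treated level. Their median of -0.76 became -0.71 with at least 10 counts and with the replicate block, -0.49 under library size alone, -0.64 in the refit, -0.38 by the mean of 16 libraries, -0.46 by the other lines, -0.67 with level and change from different control libraries, -0.84 per kilobase, -0.40 by the geometric mean and 0.0033 by the treated level. Without 1 library it was -0.81 to -0.69. DESeq2 gave 1873 higher and 661 lower genes over all libraries, and 1763 and 726 on 253J alone. Of the comparisons of named genes, 2444 kept their side of the threshold, 38 lost it and 6 gained it. The geometric mean, the treated level and the refit were chosen after seeing the data.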
